A study of Danio rerio with 32 samples.

Results

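Iron enters and leaves cells through a small set of proteins, and the transcripts of these proteins were followed here in 7 days post fertilization (dpf) zebrafish larvae with altered Keap1, Bach1 or Nrf2. The genes were chosen by name, with earlier results of these data known. They were tfr1a, tfr1b and tfr2 (transferrin receptors), slc11a2 (an importer), slc40a1 (the exporter), hamp (the hormone that controls the exporter), aco1 and ireb2 (iron regulatory proteins), slc25a37 (a mitochondrial iron carrier) and heph (a ferroxidase). Of these 10 symbols, 9 matched a row each among 16825 rows of the count table by Entrez gene identifier, and heph matched none. Of the 9 genes, 8 held enough counts to be tested. The exception was tfr2.

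RNA was counted in 32 libraries, each from a pool of 10 whole larvae, in 8 groups of 4 pools. Wild-type (WT) larvae were compared with crispants, larvae injected at the 1-cell stage with Cas9 and guides, which gives mosaic edits, against keap1a (crkeap1a), keap1b (crkeap1b) or both (crkeap1a/b). Bach1 DKO larvae came from a line with mutations in bach1a and bach1b, made in fish carrying a gstp1:EGFP reporter and an lf:NLS-mCherry marker, and Nrf2 KO larvae from the nfe2l2a line fh318. Each line was also injected against both keap1 genes, giving Bach1 DKO crkeap1a/b larvae and, from the other line, Nrf2 KO crkeap1a/b larvae. According to the paper, keap1 crispants were at first made in a gstp1:EGFP reporter line too. It does not state if the WT and crispant larvae sequenced here carried that reporter. Whether the unedited larvae were injected with Cas9 or control guides is not stated. In comparisons with them, injection and editing cannot be told apart. Clutch siblings served as controls according to the methods, which do not say which pools shared a clutch, so a mutation and any other difference between a line and WT cannot be told apart. Whether the 4 pools of a group came from separate clutches is not stated either, and p-values measure only the spread between pools.

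Keap1 holds the transcription factor Nrf2 for degradation, and its loss lets Nrf2 activate antioxidant genes. Bach1 is a heme-binding repressor that occupies many of the same promoter elements. Vertebrate cells take up iron mainly as transferrin bound to transferrin receptor 1, and the divalent metal transporter Slc11a2 carries the freed iron out of the endosome and also brings dietary iron into enterocytes. Ferroportin, the product of slc40a1, is the known cellular iron exporter, and hepcidin, the peptide from hamp, binds it and causes its breakdown. Iron regulatory proteins bind hairpins in messenger RNAs when iron is scarce, which stabilizes transferrin receptor 1 transcripts and blocks ferritin and ferroportin translation. In zebrafish, mutants of tfr1a, slc11a2, slc40a1 and slc25a37 were all found through anemia, since red cell precursors use most of the iron.

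Total counts per library were between 3464165 and 4712448, and 28.0% to 40.6% of each library fell on 1 row. All 5 edited or mutated genes had counts in every library, and because the libraries read only 3′ ends, their level does not test the edits. Of the crispants of a single gene, 5 pools (crkeap1a replicates 2 and 3, and crkeap1b replicates 1, 3 and 4) stood apart on the first principal component, which held 23.0% of the variance, with positions of 50.3 to 76.8 against 10.0 to 20.1 in the WT pools. Calls of the tested iron uptake and export genes that rest on these pools are given with and without them. Levels, marker sums and orders of groups include them. All 10 hepatocyte markers looked for, and 5 of 8 markers of other larval tissues, matched a row and had counts in every group, as whole larvae should have. Values are CPM, the counts of a gene per 1000000 counts of the library after scaling by trimmed mean of M-values (TMM), given as mean ± SD over 4 pools. A value rests on few counts where it is low, and 3 counts correspond to 0.562 to 1.15 CPM. Changes are log2 fold changes ± SE from limma-voom over 14660 rows, called at a Benjamini-Hochberg adjusted p under 0.05. In whole larvae, fewer cells of a type and less RNA per cell cannot be told apart.

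**Figure D1:**
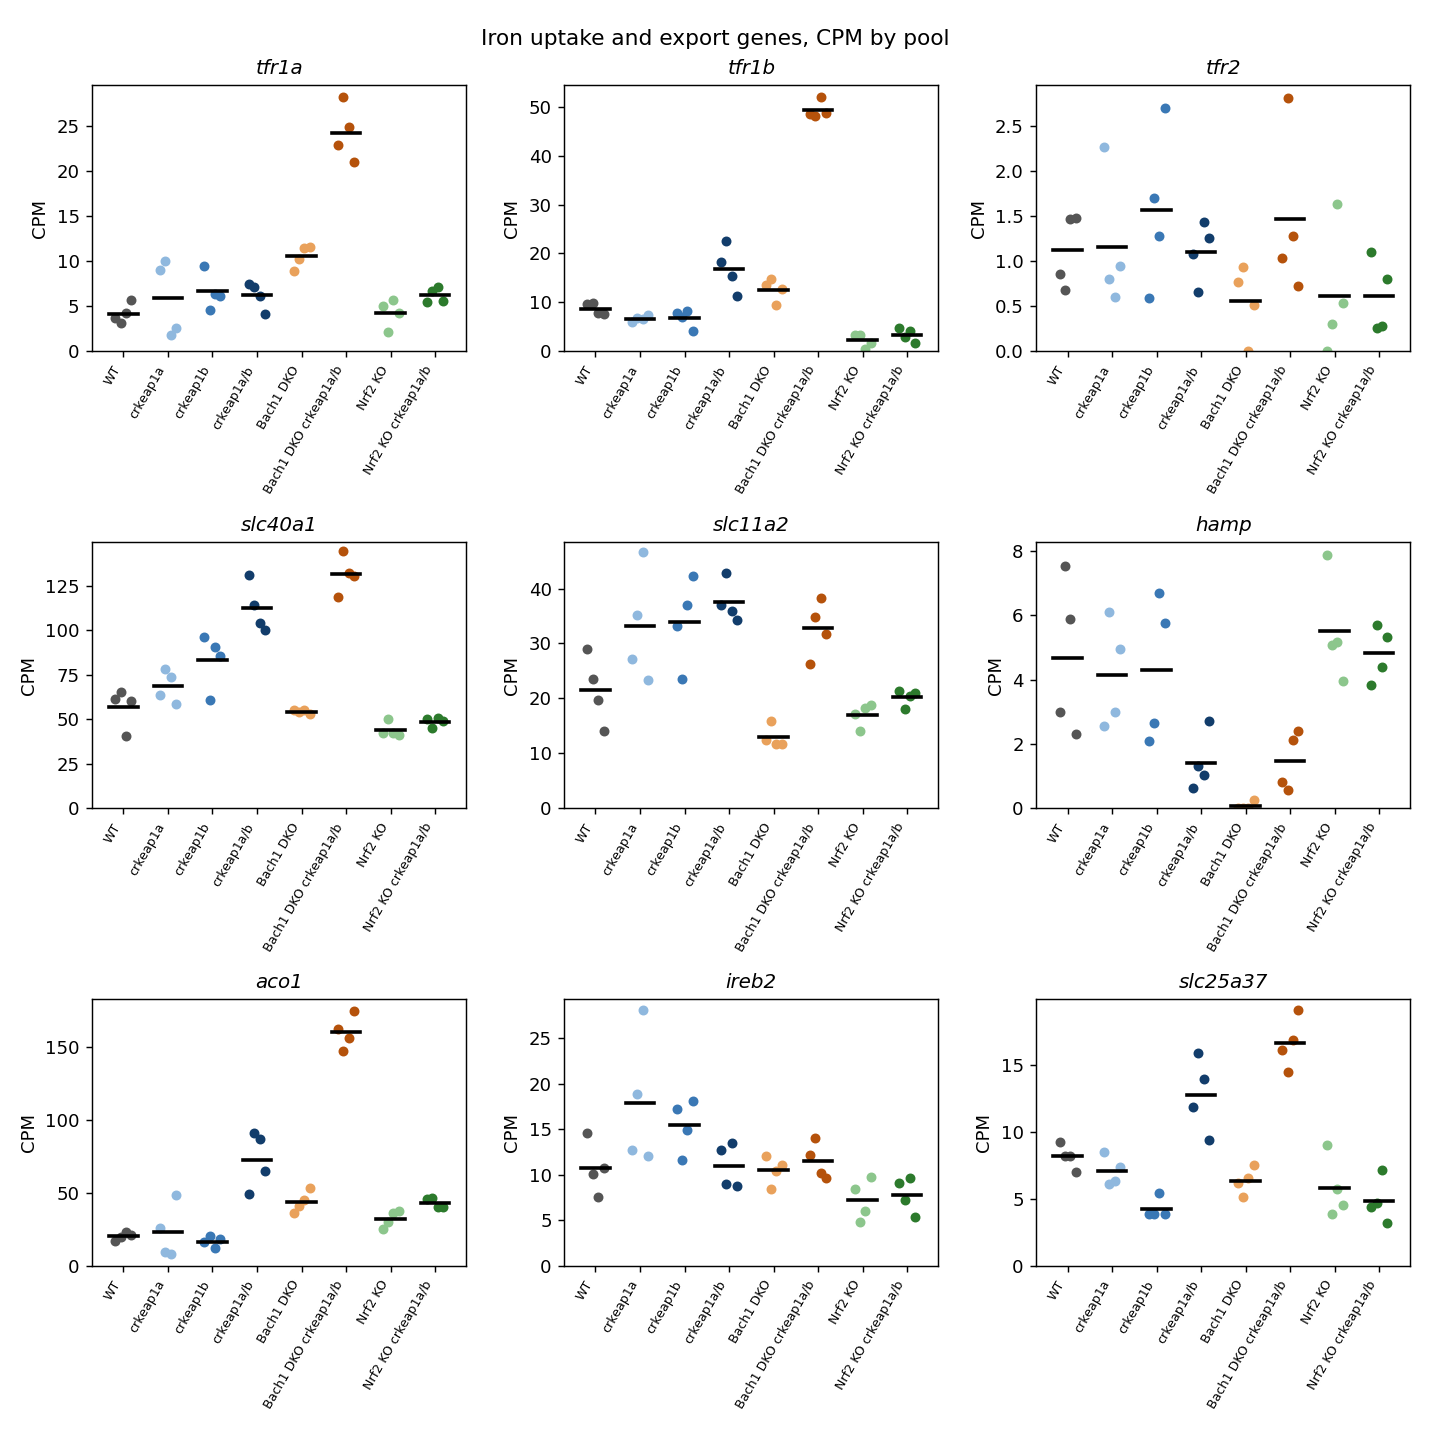
CPM of each iron uptake and export gene (vertical axis) in every pool (points) of the 8 groups (horizontal axis), with the group mean as a line. Levels of tfr1a, tfr1b and aco1 in all 4 Bach1 DKO crkeap1a/b pools lay above those of all the other groups.

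Both transferrin receptor 1 genes were highest in Bach1 DKO crkeap1a/b larvae. There the pools of tfr1b were at 48.5, 48.2, 51.9 and 48.8 CPM. The pools of crkeap1a/b larvae were at 18.3, 22.6, 15.3 and 11.3 CPM, and those of WT larvae at 9.65, 9.80, 7.77 and 7.58 CPM. These 3 groups did not overlap.

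Editing of both keap1 genes raised tfr1b by 0.91 ± 0.21 in the WT background (adjusted p = 0.00618) and by 1.97 ± 0.19 in the Bach1 DKO line (adjusted p = 2.42e-10). In Nrf2 KO larvae tfr1b was at 3.38, 3.28, 0.545 and 1.59 CPM, the lowest of the 8 groups and below all WT pools, a change of -2.19 ± 0.41 (adjusted p = 0.000186). These Nrf2 KO pools held few counts, 2 to 12 each. After injection of the Nrf2 KO line tfr1b was at 4.67, 2.85, 4.13 and 1.60 CPM, with 6 to 17 counts per pool, and overlapped the unedited pools. Here the estimated effect of editing was 0.74, with a 95% interval from -0.21 to 1.69, and it was not called. The interval includes the 0.91 seen in the WT background, and a difference in the effect of editing between these backgrounds was not detected.

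Sorted by mean, tfr1b rose from Nrf2 KO and Nrf2 KO crkeap1a/b (3.31 ± 1.37 CPM) through crkeap1a (6.69 ± 0.576), crkeap1b (6.81 ± 1.80), WT (8.70 ± 1.19), Bach1 DKO (12.6 ± 2.31) and crkeap1a/b (16.9 ± 4.80) to Bach1 DKO crkeap1a/b (49.3 ± 1.73). Among neighbours in this order the pools were apart at 2 steps, between Nrf2 KO crkeap1a/b and crkeap1a and between crkeap1a/b and Bach1 DKO crkeap1a/b, and overlapped at the others. The effect of the double edit in the Bach1 DKO line exceeded that in the WT background by 1.06 ± 0.29 (adjusted p = 0.0346). That difference was lost with edgeR (adjusted p = 0.0717) and on leaving out any of 7 single pools, with adjusted p from 0.0520 to 0.0921: WT replicate 1 or 2, crkeap1a/b replicate 3 or 4, Bach1 DKO replicate 3 or 4, or Bach1 DKO crkeap1a/b replicate 3.

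The paralog tfr1a, which in zebrafish serves developing red cells, showed its main differences in the Bach1 DKO line. In WT larvae its pools were at 3.65, 3.19, 4.20 and 5.69 CPM, in Bach1 DKO larvae at 8.95, 10.3, 11.4 and 11.6 CPM, and in Bach1 DKO crkeap1a/b larvae at 22.9, 28.3, 24.9 and 21.0 CPM. The pools of these groups were likewise apart. The gene was 1.34 ± 0.32 higher in Bach1 DKO than in WT larvae (adjusted p = 0.00209), and editing the line added 1.19 ± 0.23 (adjusted p = 0.000169). In the WT background, crkeap1a/b pools at 7.52, 7.18, 6.13 and 4.17 CPM overlapped WT, and the change of 0.55 (95% interval -0.12 to 1.23) was not called (adjusted p = 0.396). The crkeap1a pools were split, with replicates 1 and 2 at 9.07 and 10.1 CPM and replicates 3 and 4 at 1.80 and 2.60 CPM. Nrf2 KO (4.28 ± 1.58 CPM) and Nrf2 KO crkeap1a/b larvae (6.24 ± 0.825 CPM) overlapped WT. In the order of group means, the pools were apart only at the last step, from Bach1 DKO to Bach1 DKO crkeap1a/b.

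Transcripts of red cells moved with tfr1a in part. Of 10 erythrocyte markers looked for, 4 matched a row (slc4a1a, cahz, epb41b and rhag), and none was at 0 in any group. Their summed level was 61.8 to 78.1 CPM in WT, 74.3 to 95.7 in Bach1 DKO and 99.5 to 124 in Bach1 DKO crkeap1a/b pools. Between WT and Bach1 DKO larvae 1 of the 4 was called higher and none lower, with a median change of -0.075. Between Bach1 DKO and Bach1 DKO crkeap1a/b larvae, 3 of the 4 were higher and 1 lower. The anion exchanger slc4a1a, a red cell membrane protein, was at 8.45 ± 2.14 CPM in Bach1 DKO and 32.9 ± 3.20 CPM in Bach1 DKO crkeap1a/b larvae, while the ammonia channel rhag was at 59.1 ± 8.20 and 41.8 ± 7.67 CPM. In crkeap1a and crkeap1b larvae the summed level was also above WT, at 82.9 to 106 and 89.7 to 128 CPM. The part of red cell number in the levels of tfr1a and slc25a37 was not tested.

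The third receptor gene, tfr2, which in mammals senses transferrin in the liver and acts on hepcidin, was near the limit of detection. Its pools held 0 to 15 counts each, or 0 to 2.81 CPM, and group means were between 0.555 ± 0.408 CPM in Bach1 DKO and 1.56 ± 0.878 CPM in crkeap1b larvae. The pools of neighbouring groups overlapped throughout. It did not pass the filter on low counts, and no difference in tfr2 was tested.

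The importer slc11a2 was higher after editing of both keap1 genes in 2 backgrounds. Its WT pools were at 29.0, 23.5, 19.7 and 14.1 CPM and its crkeap1a/b pools at 36.9, 42.9, 36.0 and 34.2 CPM, without overlap (0.84 ± 0.19, adjusted p = 0.00356). In Bach1 DKO larvae the pools were at 12.5, 15.9, 11.7 and 11.6 CPM, and in Bach1 DKO crkeap1a/b larvae at 26.2, 34.8, 38.3 and 31.6 CPM. Both edited groups therefore lay above their own controls, and in the Bach1 DKO line the change was 1.32 ± 0.21 (adjusted p = 1.02e-05). Nrf2 KO pools at 14.0 to 18.8 CPM and Nrf2 KO crkeap1a/b pools at 18.1 to 21.4 CPM overlapped, and no change was called. The edited Nrf2 KO larvae were 0.88 ± 0.19 lower than crkeap1a/b larvae on the log2 scale (-0.88, adjusted p = 0.000915). Bach1 DKO larvae were called lower than WT (-0.69 ± 0.22, adjusted p = 0.0214), but 1 Bach1 DKO pool lay within the WT range. That call was lost without WT replicate 1 (adjusted p = 0.0912), WT replicate 2 (0.0507) or Bach1 DKO replicate 4 (0.0523). Of 9 enterocyte markers, 7 matched a row, none at 0, and their summed level was lower beside the higher slc11a2 in the Bach1 DKO line, at 642 to 739 CPM in unedited and 457 to 603 CPM in edited pools, while WT (595 to 695 CPM) and crkeap1a/b pools (452 to 633 CPM) overlapped. The markers did not move as one: of the 6 tested, 2 were called higher and 2 lower after editing the Bach1 DKO line, with a median change of 0.04. The peptide transporter slc15a1b went from 211 ± 22.8 to 64.9 ± 10.6 CPM, and the aminopeptidase anpepb.1 from 59.6 ± 10.5 to 197 ± 23.8 CPM. The part of enterocyte number in slc11a2 was not tested. No neighbouring groups in the order of slc11a2 levels were apart, from Bach1 DKO (12.9 ± 2.01 CPM) to crkeap1a/b (37.5 ± 3.77 CPM).

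The exporter slc40a1 rose after the double edit in the WT background and in the Bach1 DKO line. In WT larvae the pools were at 61.3, 65.2, 40.5 and 60.3 CPM and in crkeap1a/b larvae at 131, 114, 104 and 99.8 CPM. In Bach1 DKO larvae they were at 55.2, 54.0, 55.1 and 52.7 CPM and after editing at 119, 144, 132 and 130 CPM. Neither edited group overlapped its control, and the changes were 1.00 ± 0.14 (adjusted p = 2.14e-06) and 1.27 ± 0.14 (adjusted p = 5.41e-09).

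In the Nrf2 KO line slc40a1 was at 42.2, 50.4, 42.5 and 41.0 CPM before and at 50.3, 45.0, 50.9 and 48.8 CPM after editing. The pools overlapped, and the change of 0.15 had a 95% interval from -0.15 to 0.45. The effect of editing was smaller in the Nrf2 KO line than in the WT background by 0.85 ± 0.20 (interaction -0.85, adjusted p = 0.0213), and slc40a1 was the 1 gene of the 8 for which this difference was called. Across all rows, 1.11% were called in that test, 0.662% in this direction. The difference was not called without WT replicate 3 (adjusted p = 0.0618), crkeap1a/b replicate 1 (0.0517) or Nrf2 KO replicate 2 (0.0552). Without editing, neither line was called different from WT in slc40a1: the Bach1 DKO line differed by -0.04 (95% interval -0.33 to 0.25) and the Nrf2 KO line by -0.35 (adjusted p = 0.0983), which passed without WT replicate 3 (-0.51, adjusted p = 0.0103). In the order of group means, pools were apart between Nrf2 KO crkeap1a/b (48.7 ± 2.63 CPM) and Bach1 DKO (54.3 ± 1.15 CPM) and between crkeap1b (83.4 ± 15.5 CPM) and crkeap1a/b (112 ± 13.8 CPM). Macrophages are a site of high ferroportin, and the summed level of 5 macrophage markers (of 7 looked for, none at 0) was 8.02 to 11.4 CPM in Bach1 DKO and 21.7 to 27.9 CPM in Bach1 DKO crkeap1a/b pools, whereas WT pools at 16.6 to 36.9 CPM and crkeap1a/b pools at 17.0 to 26.9 CPM overlapped. Of the 5 markers, 2 were called higher and none lower after editing the Bach1 DKO line. Between Bach1 DKO and WT larvae, where slc40a1 was not called, 3 of the 5 were lower and none higher. The part of macrophage number in the Bach1 DKO result was not tested.

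The hepcidin gene hamp was nearly absent in the unedited Bach1 DKO line. Its WT pools were at 3.00, 7.52, 5.88 and 2.32 CPM, whereas 3 of the 4 Bach1 DKO pools had no count and replicate 4 had 1. Summed over pools this was 86 counts against 1, a level 73.7-fold lower in Bach1 DKO larvae, with a 95% counting interval of 12.9- to 2944-fold, which covers counting error only. The fall was called (adjusted p = 0.000139), with all pools below WT. Hepatocytes are the source of hepcidin, and the summed level of 10 hepatocyte markers was 669 to 757 CPM in Bach1 DKO against 724 to 1284 CPM in WT pools, ranges that overlap. The median of the sums was 713 CPM in Bach1 DKO and 1001 CPM in WT pools. Of the 10, 2 were called higher and 2 lower, with a median change of -0.45. The part of hepatocyte number in the fall of hamp was not tested.

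In Bach1 DKO crkeap1a/b larvae hamp was at 0.826, 0.562, 2.13 and 2.41 CPM, all above the unedited line and near the level of crkeap1a/b larvae (0.644, 1.31, 1.02 and 2.71 CPM). The 27 summed counts against 1 in Bach1 DKO larvae give a ratio of 22.6 (counting interval 3.72 to 924), called at adjusted p = 0.0163. Beside it, the summed hepatocyte markers were also higher without overlap, at 894 to 1158 CPM in edited against 669 to 757 CPM in unedited pools, with 4 of the 10 called higher and 1 lower. The markers did not move as one, and their median change was 0.22. The fibrinogen chain fgb was at 139 ± 28.8 CPM in edited against 27.9 ± 2.19 CPM in unedited larvae, and ahsg1 at 1.95 ± 0.886 against 7.88 ± 2.47 CPM. The marker fabp10a, a large part of the sum, was at 286 ± 69.4 against 341 ± 25.3 CPM. The part of these cells in the rise of hamp was not tested. The call of hamp was lost without Bach1 DKO replicate 1, 2 or 3 or without Bach1 DKO crkeap1a/b replicate 3 or 4, with adjusted p between 0.0513 and 0.0666. In the WT background the double edit lowered hamp, by 1.65 ± 0.48 (log2 fold change -1.65, adjusted p = 0.0344), although the highest crkeap1a/b pool lay above the lowest WT pool. That fall was not called without WT replicate 2 or 3, without crkeap1a/b replicate 1, 2 or 3, with the replicate number as a block or with only the compared groups (adjusted p 0.0513 to 0.124). The sign of the editing effect thus differed between the backgrounds, and the interaction was called (4.63 ± 1.04, adjusted p = 0.0104), a fitted value that depends on the groups near 0.

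In the Nrf2 KO line hamp was at 7.88, 5.07, 5.18 and 3.97 CPM before and at 3.85, 5.69, 4.40 and 5.33 CPM after editing, within the span of the WT pools but for 1 value. The edited Nrf2 KO pools all lay above the crkeap1a/b pools, by 1.86 ± 0.49 (adjusted p = 0.00486). Crkeap1a (4.15 ± 1.67 CPM) and crkeap1b larvae (4.30 ± 2.27 CPM) were close to WT (4.68 ± 2.44 CPM). In the order of group means, pools were apart between Bach1 DKO and crkeap1a/b and between Bach1 DKO crkeap1a/b and crkeap1a.

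**Figure D2:**
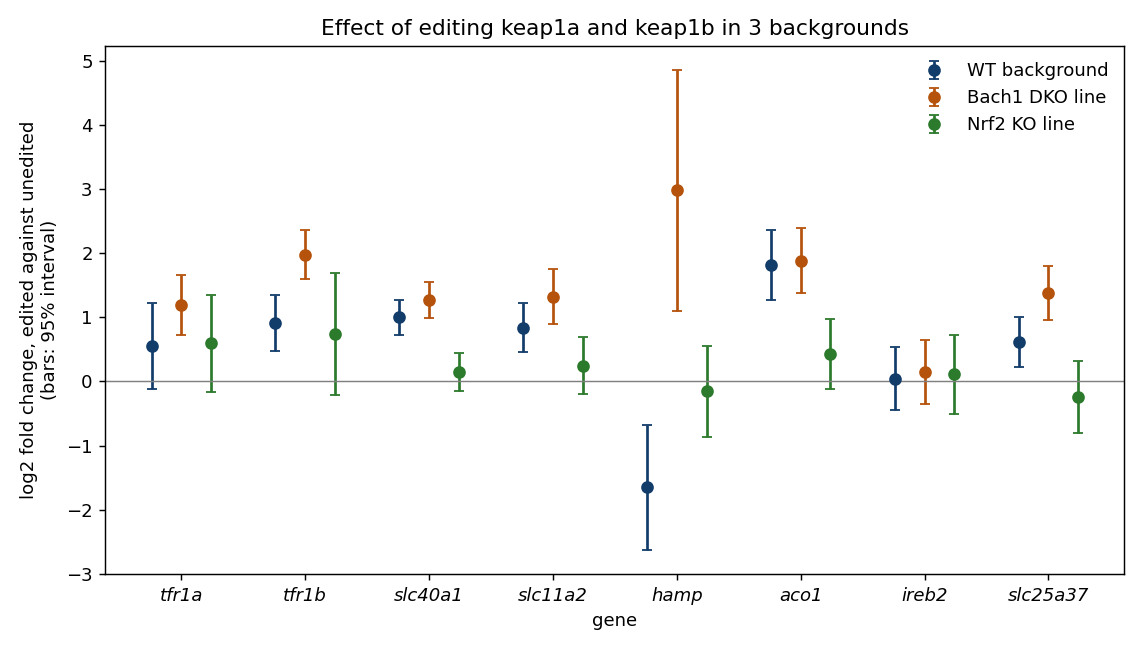
Log2 fold change of each gene after injection against both keap1 genes (vertical axis; points, with bars for 95% intervals) in the WT background, the Bach1 DKO line and the Nrf2 KO line. The intervals of tfr1b, slc11a2, slc40a1, aco1 and slc25a37 lay above 0 in the first 2 backgrounds and included 0 in the Nrf2 KO line, and hamp fell in WT and rose in the Bach1 DKO line.

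The gene of iron regulatory protein 1, aco1, rose after the double edit in the WT background and in the Bach1 DKO line, and was also higher in the unedited Bach1 DKO line. Its protein is cytosolic aconitase when it carries an iron-sulfur cluster and binds RNA when it does not. In WT larvae aco1 was at 16.9, 19.8, 22.9 and 20.9 CPM, in crkeap1a/b larvae at 49.2, 91.0, 86.6 and 64.6 CPM, and in Bach1 DKO crkeap1a/b larvae at 162, 148, 156 and 175 CPM. Bach1 DKO larvae were in between, at 35.8, 40.7, 45.0 and 53.5 CPM, and 1 of these pools lay above the lowest crkeap1a/b pool.

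Relative to WT, aco1 was 1.82 ± 0.27 higher in crkeap1a/b (adjusted p = 8.17e-06) and 1.11 ± 0.28 higher in Bach1 DKO larvae (adjusted p = 0.00335). Editing the Bach1 DKO line raised it by 1.88 ± 0.25 (adjusted p = 3.05e-07), close to the change in the WT background. Bach1 DKO crkeap1a/b larvae exceeded crkeap1a/b larvae by 1.18 ± 0.24 (adjusted p = 0.000319). In the Nrf2 KO line all edited pools (45.6, 46.3, 39.9 and 40.5 CPM) lay above all unedited ones (25.3, 29.8, 36.0 and 37.5 CPM), but the change of 0.43 (95% interval -0.12 to 0.98) was not called. Its difference from the change in the WT background (-1.38) was not called either (adjusted p = 0.0625). Unedited Nrf2 KO pools also lay above all WT pools, by 0.67, again without passing (adjusted p = 0.110). The edited Nrf2 KO larvae were lower than crkeap1a/b larvae (-0.72 ± 0.25, adjusted p = 0.0336), a call lost without crkeap1a/b replicate 2 or 3 or without Nrf2 KO crkeap1a/b replicate 1, 3 or 4 (adjusted p 0.0535 to 0.107). Sorted by mean, from crkeap1b (16.5 ± 3.56 CPM) to Bach1 DKO crkeap1a/b (160 ± 11.4 CPM), neighbouring groups were apart between Nrf2 KO and Nrf2 KO crkeap1a/b and between crkeap1a/b and Bach1 DKO crkeap1a/b.

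The second regulator, ireb2, encodes iron regulatory protein 2, which is controlled mainly by degradation when iron is present. No change after the double edit was called: it was 0.04 in the WT background (95% interval -0.44 to 0.53) and 0.15 in the Bach1 DKO line (95% interval -0.35 to 0.64). Group means ran from 7.25 ± 2.28 CPM in Nrf2 KO to 17.9 ± 7.45 CPM in crkeap1a larvae, and the pools of neighbouring groups overlapped throughout. The pools of crkeap1a larvae were at 12.7, 18.8, 28.1 and 12.0 CPM against 14.6, 10.0, 7.56 and 10.7 CPM in WT larvae.

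Mitoferrin 1, the product of slc25a37, carries iron into the mitochondria of developing red cells. Its gene was at 9.22, 8.20, 8.19 and 6.95 CPM in WT and at 11.8, 15.9, 13.9 and 9.38 CPM in crkeap1a/b larvae. Although the groups did not overlap, the change of 0.62 ± 0.19 (95% interval 0.23 to 1.01) missed the threshold (adjusted p = 0.0515), and it passed without crkeap1a/b replicate 4 (adjusted p = 0.0145). In the Bach1 DKO line the pools were at 6.13, 5.14, 6.50 and 7.50 CPM before and at 16.1, 14.4, 16.8 and 19.1 CPM after editing, a rise of 1.38 ± 0.21 (adjusted p = 3.57e-06). In the Nrf2 KO line they overlapped, at 9.0, 3.88, 5.73 and 4.49 CPM before and at 4.39, 4.66, 7.15 and 3.20 CPM after editing. The edited Nrf2 KO larvae were below crkeap1a/b larvae (-1.40 ± 0.24, adjusted p = 3.35e-05). Unedited Nrf2 KO larvae differed from WT by -0.54, which was not called (adjusted p = 0.124). The difference in the effect of editing between the Nrf2 KO line and the WT background was not called either (-0.86, adjusted p = 0.304). In the order of group means the pools were apart only between WT and crkeap1a/b. The erythrocyte markers did not move with slc25a37 in the WT background, where crkeap1a/b pools summed to 55.7 to 69.4 CPM and none of the 4 was called. Beside its rise in the Bach1 DKO line, 3 of the 4 were higher and 1 lower. In crkeap1b larvae, with slc25a37 at 4.25 ± 0.776 CPM, the markers summed to 89.7 to 128 CPM, above the WT pools (61.8 to 78.1 CPM).

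**Figure D3:**
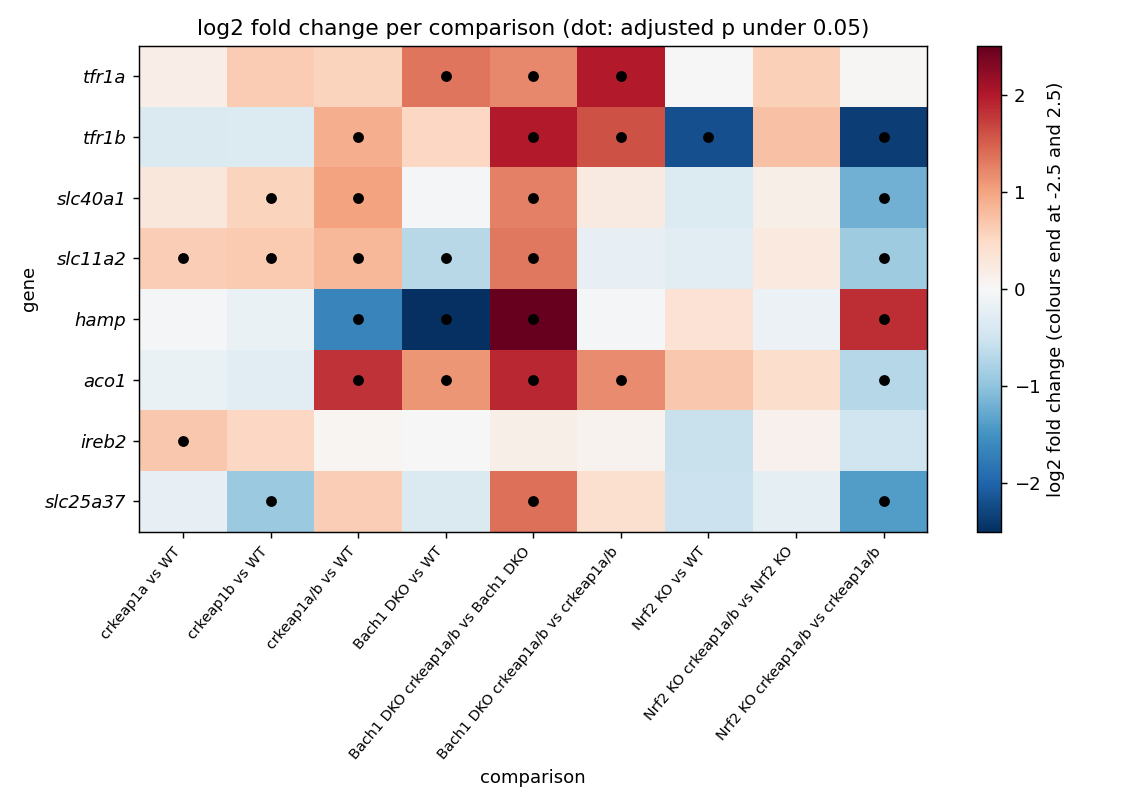
Log2 fold change of each gene (rows) in each of the 9 pairwise comparisons (columns), as colour from blue (lower) through white to red (higher), with a dot where the adjusted p was under 0.05. Of the 8 tested genes, 7 were called after editing the Bach1 DKO line and none after editing the Nrf2 KO line. Of all rows, 24.7% were called after editing the Bach1 DKO line and 0.784% after editing the Nrf2 KO line.

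Counted by comparison, 5 of the 8 tested genes were called in crkeap1a/b against WT larvae, 4 higher (tfr1b, slc11a2, slc40a1 and aco1) and 1 lower (hamp), where 5.26% of all rows were called, 3.36% higher and 1.90% lower. All crkeap1a/b pools lay above all WT pools for 5 of the 8, the 4 and slc25a37, as for 6.18% of all rows. The median change of the 8 genes was 0.73, and that of all rows -0.02. In the Bach1 DKO line the double edit raised 7 of 8 genes and lowered none, against 13.5% of all rows called higher and 24.7% called in all, with medians of 1.35 and -0.05. The pools were apart for all 7, as for 17.0% of all rows in that direction. The remaining gene was ireb2. In the Nrf2 KO line no gene was called by limma-voom, edgeR or DESeq2, and none had an unadjusted p under 0.05. Of all rows, 0.784% were called there, and the changes of the 8 genes ran from -0.24 (slc25a37) to 0.74 (tfr1b). Because the genes were chosen with earlier results of these data known, the shares of all rows are given for scale only.

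The lines were also compared with WT without editing. In Bach1 DKO larvae, tfr1a and aco1 were higher and hamp and slc11a2 lower, which is 4 of 8 with 23.3% of all rows called (11.8% higher and 11.5% lower). In Nrf2 KO larvae only tfr1b was called, lower, 1 of 8 with 16.1% of all rows called (7.55% lower). Between the edited groups, Bach1 DKO crkeap1a/b larvae were higher than crkeap1a/b larvae in 3 genes with 29.7% of all rows called (15.8% higher). These were tfr1a (1.98 ± 0.25, adjusted p = 3.87e-07), tfr1b (1.59 ± 0.17, adjusted p = 1.28e-08) and aco1. Nrf2 KO crkeap1a/b larvae were lower than crkeap1a/b larvae in 5 genes and higher in hamp, with 24.2% of all rows called (11.1% lower and 13.0% higher). Among these differences were tfr1b (-2.36 ± 0.32, adjusted p = 5.46e-07) and slc40a1 (-1.20 ± 0.14, adjusted p = 4.62e-08), and the pools of the 2 groups did not overlap for any of the 6. Of all rows, 15.4% had all pools higher and 14.7% all pools lower in this comparison. These comparisons share groups, and their counts are not independent of one another.

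In crkeap1a larvae 2 of 8 genes were called, both higher, with 13.1% of all rows called (6.13% higher): ireb2 (0.67 ± 0.23, adjusted p = 0.0498) and slc11a2 (0.61 ± 0.19, adjusted p = 0.0331). The pools of both overlapped WT. In crkeap1b larvae 3 were called, with 17.8% of all rows called (9.73% higher and 8.10% lower). The exporter slc40a1 (0.55 ± 0.14, adjusted p = 0.00633) and slc11a2 (0.65 ± 0.20, adjusted p = 0.0191) were higher with overlap, and slc25a37 was lower in all pools, at 3.86, 3.88, 5.41 and 3.84 CPM (-0.92 ± 0.27, adjusted p = 0.0156).

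Leaving out single pools also ended these calls. For ireb2 this was WT replicate 2, 3 or 4 or crkeap1a replicate 2 or 3 (adjusted p 0.0866 to 0.266). The ireb2 call was also lost with the replicate number as a block (0.0532), without the filter on low counts (0.0560), with quality weights (0.147) and with only the compared groups (0.156). For slc11a2 in crkeap1a larvae the pools were WT replicate 3 (0.0763) or 4 (0.168) or crkeap1a replicate 2 (0.115) or 3 (0.190). In crkeap1b larvae slc11a2 was lost without WT replicate 4 (0.113) or crkeap1b replicate 3 (0.0718) or 4 (0.101), slc40a1 without WT replicate 3 (0.0536) and slc25a37 without crkeap1b replicate 4 (0.0531). With only the compared groups these 4 calls were lost as well (adjusted p 0.0665 to 0.146), and with quality weights so were slc11a2 in crkeap1a (0.0711) and slc25a37 in crkeap1b larvae (0.0667).

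Without the 5 pools that stood apart, calls over all rows fell in both groups, in crkeap1a larvae from 1926 to 324. Each of the 5 calls was lost as well. The changes were then 0.25 for ireb2 (adjusted p = 0.726) and 0.27 for slc11a2 (0.572) in crkeap1a larvae, and 0.13 for slc40a1 (0.895), 0.18 for slc11a2 (0.898) and -1.03 for slc25a37 (0.487) in crkeap1b larvae, where 1 pool then remained, assumed to vary like the other groups. In place of these, aco1 was called in crkeap1a larvae, at 0.85 (adjusted p = 0.0481). With all pools its change was -0.17 (95% interval -0.80 to 0.46), and the pools were split, with replicates 1 and 4 at 25.8 and 48.6 CPM, above WT, and replicates 2 and 3, which stood apart, at 9.02 and 7.78 CPM, below WT.

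**Figure D4:**
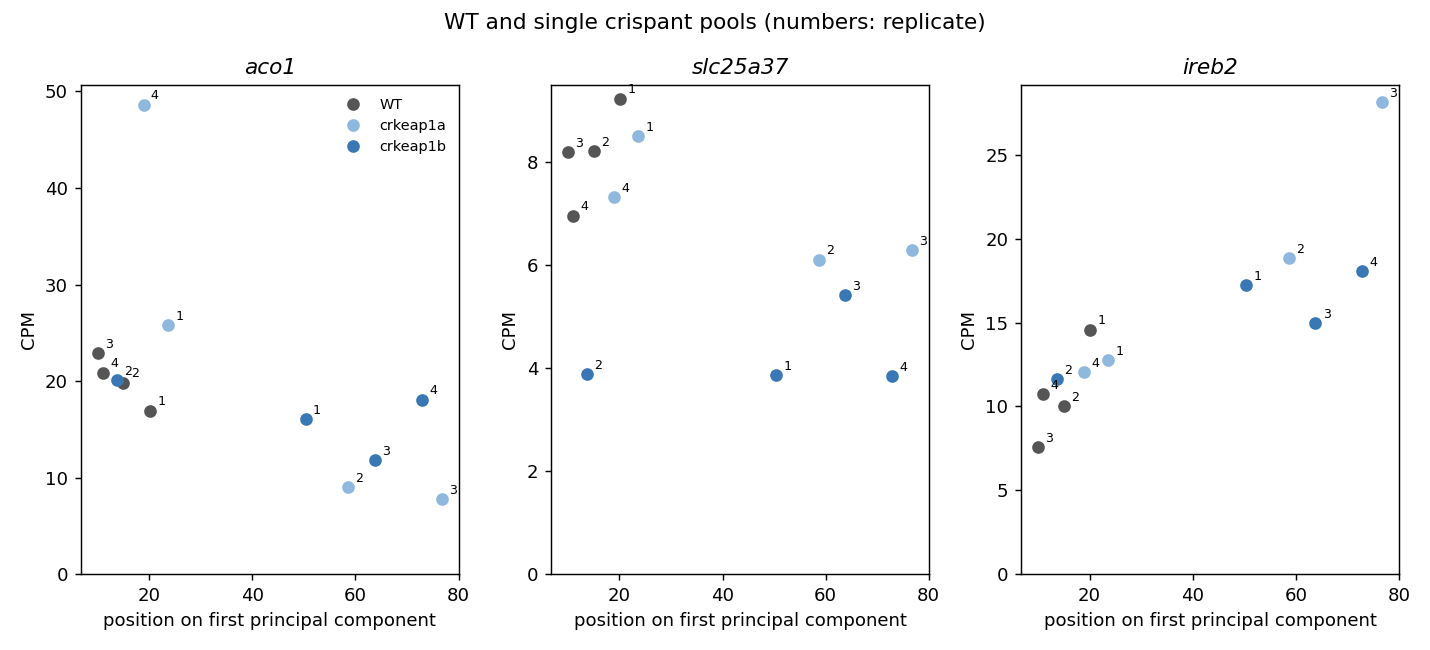
CPM of aco1, slc25a37 and ireb2 (vertical axes) against the position on the first principal component of all 32 libraries (horizontal axis) in WT, crkeap1a and crkeap1b pools (points, numbered by replicate). The crkeap1a pools with high positions, replicates 2 and 3, had the lowest aco1 and the highest ireb2 of that group, while slc25a37 was as low in crkeap1b replicate 2 as in the crkeap1b pools that stood apart.

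The effect of editing both paralogs departed from the sum of the single edits for 4 of the 8 genes. In that test 38.0% of all rows were called (19.4% above and 18.6% below the sum). This share was counted with the 5 pools that stood apart. Calls over all rows also fell without them, when 1 crkeap1b pool remained. The departure was 2.27 ± 0.43 for aco1 (adjusted p = 9.88e-05), 1.74 ± 0.34 for slc25a37 (adjusted p = 0.000147), 1.60 ± 0.36 for tfr1b (adjusted p = 0.000776) and -1.15 ± 0.33 for ireb2 (adjusted p = 0.00668). Without the 5 pools that stood apart none of the 4 passed. The values were then 0.97 for aco1 (adjusted p = 0.191), 1.70 for slc25a37 (0.0649), 1.56 for tfr1b (0.0894) and -0.35 for ireb2 (0.715). In the test of the effect of editing between the Bach1 DKO line and the WT background, tfr1b and hamp were called, 2 of 8 with 2.71% of all rows called (1.49% with the larger value in the Bach1 DKO line).

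Other genes of iron metabolism were read from 4 lists holding 61 names, with a row for 47 and enough counts to test 44: carriers, reductases and oxidases, control of hepcidin, cytosolic iron handling and iron-sulfur cluster assembly. After the double edit in the WT background 3 of 44 were called higher and 1 lower, with 3.36% of all rows called higher and 1.90% lower, and the median change was 0.02. Of these, 3 are named here, after their values were seen. They were ncoa4, the receptor that takes ferritin to the lysosome (0.51 ± 0.14, adjusted p = 0.0177), nfs1, the cysteine desulfurase of cluster assembly (0.57 ± 0.16, adjusted p = 0.0264), and fbxl5, which in mammals targets iron regulatory protein 2 for degradation when iron is present (-0.65 ± 0.17, adjusted p = 0.0157). The pools of none of them overlapped WT, as for the 6.18% of all rows with all pools higher and 6.17% with all pools lower. The calls of ncoa4, nfs1 and fbxl5 were each lost on leaving out single pools: ncoa4 without crkeap1a/b replicate 3 (adjusted p = 0.0591) or 4 (0.0604), nfs1 without WT replicate 3 (0.131) or 4 (0.0612) or crkeap1a/b replicate 2 (0.0924) or 3 (0.0683), and fbxl5 without WT replicate 1 (0.0514) or crkeap1a/b replicate 3 (0.0583).

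In the Bach1 DKO line the double edit raised 9 of 44 list genes and lowered 1. The 10 called in all were a share near that of all rows (24.7%). Of all rows, 13.5% were called higher. Cluster assembly held 6 of the 9 among its 19 tested genes, including ciao2a of the cytosolic assembly pathway (1.08 ± 0.15, adjusted p = 9.39e-07) and nubp2, a scaffold protein of the same pathway (1.29 ± 0.38, adjusted p = 0.0106). Ncoa4 rose from 18.9 ± 1.78 to 38.1 ± 3.19 CPM (1.01 ± 0.14, adjusted p = 1.04e-06), and slc39a8, a zinc and iron importer, from 2.03 ± 0.671 to 6.81 ± 1.35 CPM (1.73 ± 0.39, adjusted p = 0.000995). All pools were higher for these 4 genes. None of the 12 tested genes of hepcidin control was called beside the rise of hamp by limma-voom, and 1 had an unadjusted p under 0.05.

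Between Bach1 DKO and WT larvae, where hamp was lower, 3 of 12 genes of hepcidin control were higher and 4 lower, with 11.8% of all rows called higher and 11.5% lower. The bone morphogenetic protein co-receptor hjv, which in mammals promotes hepcidin transcription and is also expressed in skeletal muscle, was at 18.4 ± 4.14 against 6.59 ± 1.48 CPM (1.47 ± 0.31, adjusted p = 0.000751). The inhibitory smad6b was lower (-1.36 ± 0.47, adjusted p = 0.0313), a call lost without WT replicate 2 (adjusted p = 0.0517) or 3 (0.0940) or Bach1 DKO replicate 1 (0.0922) or 2 (0.0853). Of the cluster assembly genes, 7 of 19 were higher and 1 lower, and over all 44 list genes 10 were higher and 5 lower. The chaperone hspa9 (1.04 ± 0.18, adjusted p = 7.49e-05) and the glutaredoxin glrx5 (1.29 ± 0.33, adjusted p = 0.00434) were higher in Bach1 DKO larvae. So was nubp1, the partner of nubp2 (1.05 ± 0.21, adjusted p = 0.000404). The genes hjv, hspa9, glrx5 and nubp1 also differed in the same direction between Bach1 DKO crkeap1a/b and crkeap1a/b larvae, by 2.41 ± 0.37 for hjv (adjusted p = 6.04e-06), 1.45 ± 0.18 for hspa9 (1.57e-07), 1.18 ± 0.25 for glrx5 (0.000602) and 1.08 ± 0.20 for nubp1 (9.25e-05), a comparison of 2 other groups from the same line and background. In all, 14 of 44 list genes were higher there and 3 lower, with 29.7% of all rows called and 15.8% called higher.

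The low gene nubp2 was at 1.07 ± 1.14 CPM in WT, 3.02 ± 0.458 in Bach1 DKO, 0.526 ± 0.446 in crkeap1a/b and 7.53 ± 0.676 CPM in Bach1 DKO crkeap1a/b larvae. It was higher in the Bach1 DKO line without editing (1.90 ± 0.63, adjusted p = 0.0257), a call lost with edgeR (0.0552) and without WT replicate 1 (0.0852), 2 (0.0516) or 4 (0.111) or Bach1 DKO replicate 4 (0.0564), and with editing (4.01 ± 0.70, adjusted p = 4.75e-05), against a group at about the level of 3 counts. Between the edited groups smad6b was again lower (-1.20 ± 0.42, adjusted p = 0.0271), a call lost without crkeap1a/b replicate 1 (0.0677) or Bach1 DKO crkeap1a/b replicate 1 (0.109) or 4 (0.0540).

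In Nrf2 KO larvae, where 16.1% of all rows were called, 1 of 44 was higher, smad6b (1.06 ± 0.31, adjusted p = 0.0143, lost without WT replicate 4, adjusted p = 0.0948, or Nrf2 KO replicate 4, 0.0514), and 1 was lower. Editing that line, with 0.784% of all rows called, raised 1 of 44, nfs1 (0.80 ± 0.19, adjusted p = 0.0222). Leaving out any of 6 of the 8 pools in turn, all but Nrf2 KO replicate 3 and Nrf2 KO crkeap1a/b replicate 4, ended that call, with adjusted p from 0.0558 to 0.117. Against crkeap1a/b larvae, the edited Nrf2 KO larvae were higher in 6 list genes and lower in 3, with 13.0% of all rows called higher and 11.1% lower. The lower ones included ncoa4 (-0.82 ± 0.15, adjusted p = 7.21e-05) and slc39a8 (-1.22 ± 0.40, adjusted p = 0.0235). The last was lost without crkeap1a/b replicate 1 (adjusted p = 0.0562) or 2 (0.0565) or Nrf2 KO crkeap1a/b replicate 3 (0.119). The higher genes included nubp2 (2.59 ± 0.76, adjusted p = 0.0109, lost without crkeap1a/b replicate 2, 0.0524), hjv (1.26 ± 0.41, adjusted p = 0.0203, lost without crkeap1a/b replicate 4, 0.147, where the change was 0.76, or Nrf2 KO crkeap1a/b replicate 4, 0.0506) and smad6b (1.22 ± 0.29, adjusted p = 0.00202).

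Among the crispants of a single gene, 5 list genes were higher and 1 lower in crkeap1a larvae, and 5 higher and 3 lower in crkeap1b larvae. These are 6 and 8 of 44, near the shares of all rows called (13.1% and 17.8%). In crkeap1b larvae the largest changes were those of id1, a target of bone morphogenetic protein signaling (1.08 ± 0.18, adjusted p = 0.000172), smad6b (1.03 ± 0.31, adjusted p = 0.0192) and hjv (1.02 ± 0.33, adjusted p = 0.0308). With only the compared groups the calls of smad6b and hjv were lost. That of smad6b was also lost without WT replicate 4 or crkeap1b replicate 1 or 4. That of hjv was also lost without WT replicate 2 or 4 or crkeap1b replicate 3 or 4. Without the pools that stood apart no list gene was called in crkeap1a larvae, where calls over all rows fell from 1926 to 324. In crkeap1b larvae, where 1 pool then remained, the changes of id1, smad6b and hjv were 0.37, 0.65 and 0.42.

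**Figure D5:**
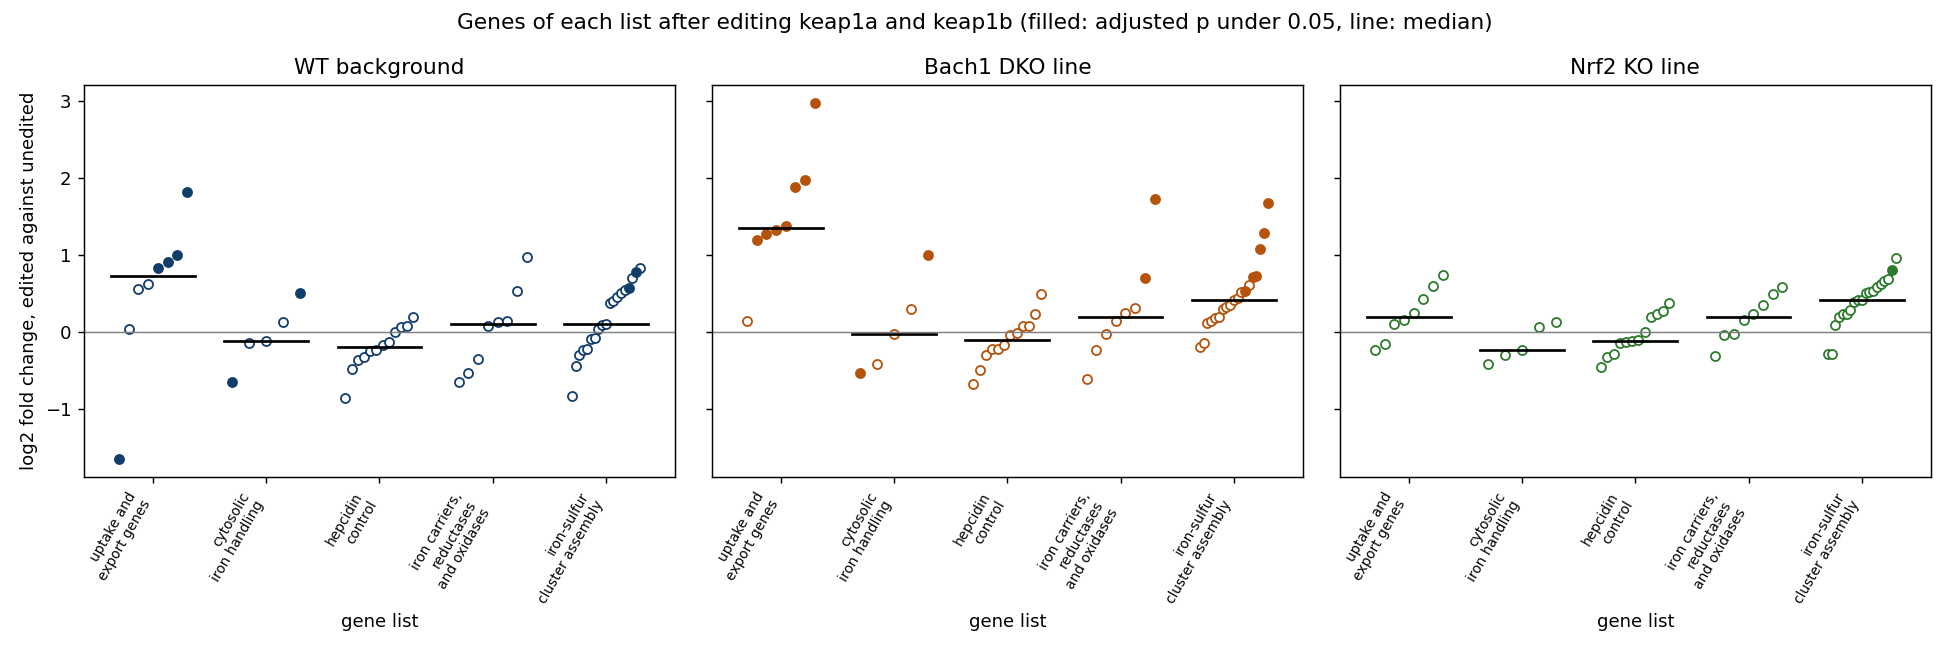
Log2 fold change after editing both keap1 genes (vertical axis) of each tested gene (points; filled where the adjusted p was under 0.05) of the iron uptake and export genes and of 4 lists of other iron genes (horizontal axis), in the WT background and in both mutant lines, with lines at the medians. The uptake and export genes have medians of 0.73, 1.35 and 0.20 in these backgrounds.

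The 8 tested genes differed in how far their levels moved over the groups. The range of group means on the log2 CPM scale was 4.39 for tfr1b, 3.42 for hamp, 3.26 for aco1, 2.44 for tfr1a, 1.86 for slc25a37, 1.57 for slc40a1, 1.51 for slc11a2 and 1.22 for ireb2. The prior count of 2 in this scale shrinks ranges that reach near 0. For hamp the fitted change between Bach1 DKO and WT larvae was -4.69, so its place in this order depends on the prior. Over the 32 libraries the members most alike were tfr1b and slc40a1 (Pearson r = 0.789), tfr1b and slc25a37 (0.777) and slc40a1 and slc11a2 (0.746), and those most opposed were tfr1b and hamp (-0.558). Of all tested rows, the pattern most like tfr1b was that of nqo1 (r = 0.953), a quinone reductase and standard Nrf2 target, followed by hmgb3b (0.922) and baxa (0.915). For aco1 they were chmp2a (0.933), rabgap1l2 (0.928) and arf1 (0.925), and for hamp hsp90aa1.2 (0.814), zgc:112285 (0.810) and usp8 (0.809). These correlations follow the group differences, since libraries of a group share genotype, and describe likeness over these libraries alone.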

How the data were processed

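Pools of 10 larvae were homogenized and libraries made with the QuantSeq 3′ mRNA kit, which places a read at a transcript's 3′ end, so that counts do not scale with gene length. The authors deposited raw read counts per gene for 32 libraries. Per the submitters' notes the tools were FastQC 0.72, cutadapt 1.16, STAR 2.7.5b, featureCounts 1.6.3 and limma 3.40.6, with genome build danRer11. Strand setting and treatment of reads with several matches are not given in the sources used here. Reads shared by paralogs such as tfr1a and tfr1b could be affected.

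Groups came from sample titles. Symbols were matched by Entrez identifier to RefSeq, and 15617 of 16039 identifiers matched. The iron genes, gene lists and markers were chosen with earlier results of these data known. Rows with low counts were removed with filterByExpr (minimum count 10), leaving 14660. Normalization was TMM, and limma-voom (limma 3.58.1, edgeR 4.0.16, R 4.3.3), as in the study's methods, was fitted to 8 group means over all 32 libraries with 24 residual degrees of freedom. Comparisons were 9 pairwise contrasts and 3 interactions, two-sided, with Benjamini-Hochberg adjustment over all rows. Log2 CPM used a prior count of 2. Scripts were tested on simulated data. All matched members are named. List genes are named where called with an absolute log2 fold change over 1, at most 3 per list and comparison, other than those said to be named after their values were seen or repeated for a gene already named. A list gene that the counts include is not reported here by name. Alternatives were edgeR, DESeq2 1.42.0, other size factors, no filter, quality weights, the compared groups alone, a replicate block, and leaving out each pool. Leaving out the 5 pools that stood apart was added after the data were seen.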

Additional observations from a re-analysis of the deposited data

Results flagged for a closer look

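Among 72 combinations of a gene and a group, 4 had 1 pool far from the other 3, where chance flags about 1 in 20. These were tfr1b in Bach1 DKO crkeap1a/b larvae, replicate 3 (51.9 CPM against 48.2 to 48.8), slc40a1 in Nrf2 KO larvae, replicate 2 (50.4 against 41.0 to 42.5 CPM), slc25a37 in crkeap1b larvae, replicate 3 (5.41 against 3.84 to 3.88 CPM), and hamp in Bach1 DKO larvae, replicate 4, where a single count gave 0.259 CPM and the other pools had none.

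A limma-voom interaction term was called for 7 values. For the 2 keap1 genes together against their single edits these were aco1 (2.27, adjusted p = 9.88e-05), slc25a37 (1.74, 0.000147), tfr1b (1.60, 0.000776) and ireb2 (-1.15, 0.00668). In that test 38.0% of all rows were called, with the 5 pools that stood apart included. Between the Bach1 DKO line and the WT background these were hamp (4.63, adjusted p = 0.0104) and tfr1b (1.06, 0.0346). Of all rows, 2.71% were called there, and the call of tfr1b was lost with edgeR and on leaving out any of several single pools. Between the Nrf2 KO line and the WT background it was slc40a1 (-0.85, adjusted p = 0.0213). There 1.11% of all rows were called, and the slc40a1 call was lost on leaving out any of several single pools.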

How the results depend on the processing

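Of 425 values of single iron uptake and export genes under other settings, 395 kept their direction and their side of the threshold, 22 lost a call, 5 gained one and 3 changed sign; of 472 under leaving out 1 pool, these counts were 422, 42, 2 and 6. No called value of these genes changed sign, and no setting moved the median of all rows by over 0.1. For aco1 in crkeap1a against WT larvae (-0.17, not called) the sign turned with edgeR (0.20), DESeq2 (0.19) and without the 5 pools that stood apart (0.85), and leaving out single pools gave -0.73 (without crkeap1a replicate 4) to 0.18 (without replicate 3, and 0.14 without replicate 2). For ireb2 in crkeap1a/b against WT, leaving out single pools gave -0.11 to 0.22, with -0.11 without WT replicate 3, -0.02 without crkeap1a/b replicate 1 and -0.06 without crkeap1a/b replicate 3, and for slc40a1 in Bach1 DKO against WT it was -0.21 without WT replicate 3 to 0.018 without WT replicate 2.

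Calls over all rows moved with the setting too. With only the compared groups they fell from 1926 to 386 in crkeap1a and from 2614 to 415 in crkeap1b against WT. Counts of the 8 genes called moved as follows. In crkeap1a against WT (2 called) the count was 1 without a filter, 0 with quality weights, 1 with the replicate block, 0 with only the compared groups and 1 without the pools that stood apart, and 0 to 2 on leaving out a pool. In crkeap1b against WT (3) it was 0 with only the compared groups, 0 without the pools that stood apart, and 1 to 4 on leaving out a pool. In Nrf2 KO against WT (1) it was 2 with only the compared groups, where aco1 passed, and 1 to 2 on leaving out a pool. For both keap1 genes against the single edits (4) it was 0 without the pools that stood apart. For editing by Bach1 line (2) it was 1 with edgeR and 1 to 2 on leaving out a pool, and for editing by Nrf2 line (1) it was 2 with DESeq2, 2 with quality weights, 2 with only the compared groups and 0 to 1 on leaving out a pool.

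Counts of the 44 list genes called moved as follows. In crkeap1a (6) the count was 2 with quality weights, 1 with only the compared groups, 0 without the pools that stood apart and 1 to 8 on leaving out a pool, and in crkeap1b (8) it was 1 with only the compared groups, 0 without the pools that stood apart and 2 to 16 on leaving out a pool. In crkeap1a/b (4) leaving out a pool gave 2 to 6. After editing the Bach1 DKO line (10) it was 17 with quality weights and 18 with only the compared groups. Calls over all rows rose there too, from 3614 to 5470 and 5203. In Nrf2 KO against WT (2) the count was 5 with DESeq2, 5 with quality weights and 0 to 3 on leaving out a pool. After editing that line (1) it was 3 with quality weights, 3 with only the compared groups and 0 to 1 on leaving out a pool. Under the first 2 of these settings, calls over all rows rose from 115 to 614 and 739. Between the edited Nrf2 KO and crkeap1a/b larvae (9), where calls over all rows went from 3544 to 4925, the count was 15 with quality weights. For both keap1 genes against the single edits (17) it was 10 with only the compared groups, 1 without the pools that stood apart and 10 to 19 on leaving out a pool. For editing by Bach1 line (1) it was 0 with edgeR, 2 with quality weights, 3 with only the compared groups and 0 to 1 on leaving out a pool, and for editing by Nrf2 line (0) 2 with only the compared groups. The causes were not tested.

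In none of the 9 comparisons were the correlations of all 4 pairs of same-numbered pools over 0.1, so the numbers were not taken to pair the samples. The edited and unedited Bach1 DKO line came closest, with 3 of 4 over it (0.0842 to 0.162, mean 0.136, against -0.0452 between pools of different numbers). With the replicate block, among the 8 genes ireb2 in crkeap1a (adjusted p = 0.0532) and hamp in crkeap1a/b (0.0736) were no longer called. No other call of these 8 genes was changed by it. Depth limits hamp, tfr2 and nubp2, which had few counts per pool. It also limits tfr1b in the Nrf2 KO line, with 2 to 12 counts per pool before and 6 to 17 after editing.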
